A study of Mus musculus with 49 samples.

Results

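The genes described here are 10 genes of the enteroendocrine cell, the hormone-secreting cell of the gut epithelium: Chga, Chgb, Cck, Gcg, Gip, Sct, Sst, Tph1, Neurog3 and Neurod1. They were chosen by name, and each symbol matched 1 of the 46078 gene identifiers in the deposited table of counts. The table holds 49 CEL-seq2 libraries of 16 conditions from wild-type C57BL/6J mice. CEL-seq2 reads the 3′ end of a transcript and counts unique molecular identifiers (UMIs), so that a transcript is counted once whatever its length.

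Freshly isolated hepatocytes (FH, 3 libraries) came from mice 10 weeks of age. Hepatocytes were then kept in monolayer with EGF at 20 ng/mL and sampled first at 3 h and 1 day, then after 2 and 4 days, and last at 1 week and 2 weeks (3 libraries each), and for 1 week with verteporfin at 0.3 µM, an inhibitor of Yap, or with its solvent DMSO (2 each). Dedifferentiated hepatocytes (dediHeps, 5) are the progenitor-like cells that grow out of such cultures and can be passaged, and aggregates (3) are dediHeps clustered on non-adhesive plates. CLiPs (3) are hepatocytes turned into progenitor-like cells with small molecules. The 4 organoid groups grew in Matrigel. Spherical organoids were made from dediHeps (dediHep-SO, 3) or from intestinal progenitor cells of E13.5 embryos (FIPC-SO, 3), and budding organoids from dediHeps given Cdx2 from a vector (dediHep-BO, 3) or from crypts of the adult small intestine at 10 weeks of age (ISC-BO, 4). Cdx2, a master transcription factor of the intestine, was thus forced in 1 organoid group only, and spherical and budding organoids also differed in medium, since Wnt3a and the GSK3 inhibitor CHIR99021 are left out for budding. Library totals ran from 861047 to 3872936 counts, so that 3 counts, the upper limit that a count of 0 allows, equalled 0.775 to 3.48 CPM. Each level below is such a CPM, the count scaled to millionths of the library total. The labels do not say which libraries come from separate animals, so the p-values measure the spread between these libraries, which may be technical in part.

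Enteroendocrine cells arise from crypt stem cells that pass through a short-lived state with the basic helix-loop-helix factor Neurog3, which is required for the lineage, and then turn on Neurod1, a factor of the same family that acts in their differentiation. The mature cells store peptide hormones or serotonin in dense-core granules, in which the chromogranins Chga and Chgb are main proteins. Single hormones mark partly overlapping subtypes: Cck encodes cholecystokinin, Gcg proglucagon and so GLP-1, Gip the glucose-dependent insulinotropic peptide, Sct secretin and Sst somatostatin, while Tph1 is the first enzyme of serotonin synthesis outside the nervous system.

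In GENCODE M21 (GRCm38) the granule genes lie at chr12:102554969-102565028 (Chga) and chr2:132781278-132795079 (Chgb). The hormone genes lie at chr9:121489824-121495694 (Cck), chr2:62474530-62483650 (Gcg), chr11:96024545-96030831 (Gip), chr7:141278330-141279133 (Sct) and chr16:23889573-23890958 (Sst), and Tph1 at chr7:46644641-46672537. Neurog3 (chr10:62133090-62134763) overlaps Fam241b on the other strand, and Neurod1 (chr2:79452521-79456751) lies within the bounds of Cerkl on its own strand and meets Gm26755 on the other. Whether reads were counted by strand is not given in the sources used here, so reads of these partners could enter the 2 factors' counts. The other 8 genes overlap no annotated gene.

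Stretches of 5 promoters are shown because each holds a motif that recurs among the members. All 10 genes matched the RefSeq promoter table (GRCm38.p6), Tph1 with 2 windows. In the 250 bases upstream of the RefSeq start, on either strand, TGACGTNA (the cyclic AMP response element and a close form of it) was found in 3 of the 10 genes and in 2.52% of 32851 promoter windows. It stood 44 bases upstream of the start in Chga, 72 in Chgb and 48 in Sst, counted to the motif's first base. The windows below are 30 bases of the gene's own strand, at chr12:102554886-102554915 (+), chr2:132781559-132781588 (+) and chr16:23890874-23890903 (−), with the motif in capitals. Those of Chgb and Sst lie upstream of the RefSeq start but within an exon of a longer GENCODE transcript.
Chga: gggcggtcctaTGACGTAAtttcctgggtg
Chgb: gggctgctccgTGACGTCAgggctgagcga
Sst: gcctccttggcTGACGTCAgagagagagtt
CAGATG, an E-box of the kind bound by Neurog3 and Neurod1, was found in Gcg, Sct and Cck, 3 of the 10 genes, and in 14.4% of windows. It began 83 bases upstream of the start in Gcg, which held a further copy at 139, 30 bases upstream in Cck, and 242 in Sct. The 100 bases before the start are given for Gcg (chr2:62483654-62483753, −) and Cck (chr9:121495695-121495794, −), with that motif in capitals.
Gcg: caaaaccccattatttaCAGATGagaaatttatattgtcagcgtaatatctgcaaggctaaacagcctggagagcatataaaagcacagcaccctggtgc
Cck: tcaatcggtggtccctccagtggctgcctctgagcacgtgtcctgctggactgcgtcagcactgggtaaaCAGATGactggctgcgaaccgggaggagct
TATAAA was found in Gcg and Sct, 2 of the 10 genes, and in 12.4% of windows. None of these 3 motifs overlapped another in the members' windows, and a match is a string of letters, not a shown binding site.

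In fresh hepatocytes all 10 genes had 0 counts in each of the 3 libraries, and in the aggregates too none was counted. In the 5 dediHep libraries 8 of the 10 had 0 counts, and the rest came from 1 library, replicate 3, with 1 count of Chga and 4 of Sct. The dediHep-SO libraries held 5 counts of the 10 genes in all: 1 of Chga, 1 of Chgb, 2 of Sct and 1 of Tph1. The 3 CLiP libraries held 7, of which 6 were Chga (1, 1 and 4 counts) and 1 was Chgb. The 10 genes were therefore at or near the limit of detection in FH, dediHeps, aggregates, CLiPs and dediHep-SO, and most of their counts lay in dediHep-BO, FIPC-SO and ISC-BO, which together held 92.3% of the counts of Tph1, 93.9% of Cck, 95.5% of Sct, 97.0% of Chga and 98.6% to 100% of the other 6 genes.

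**Figure D1:**
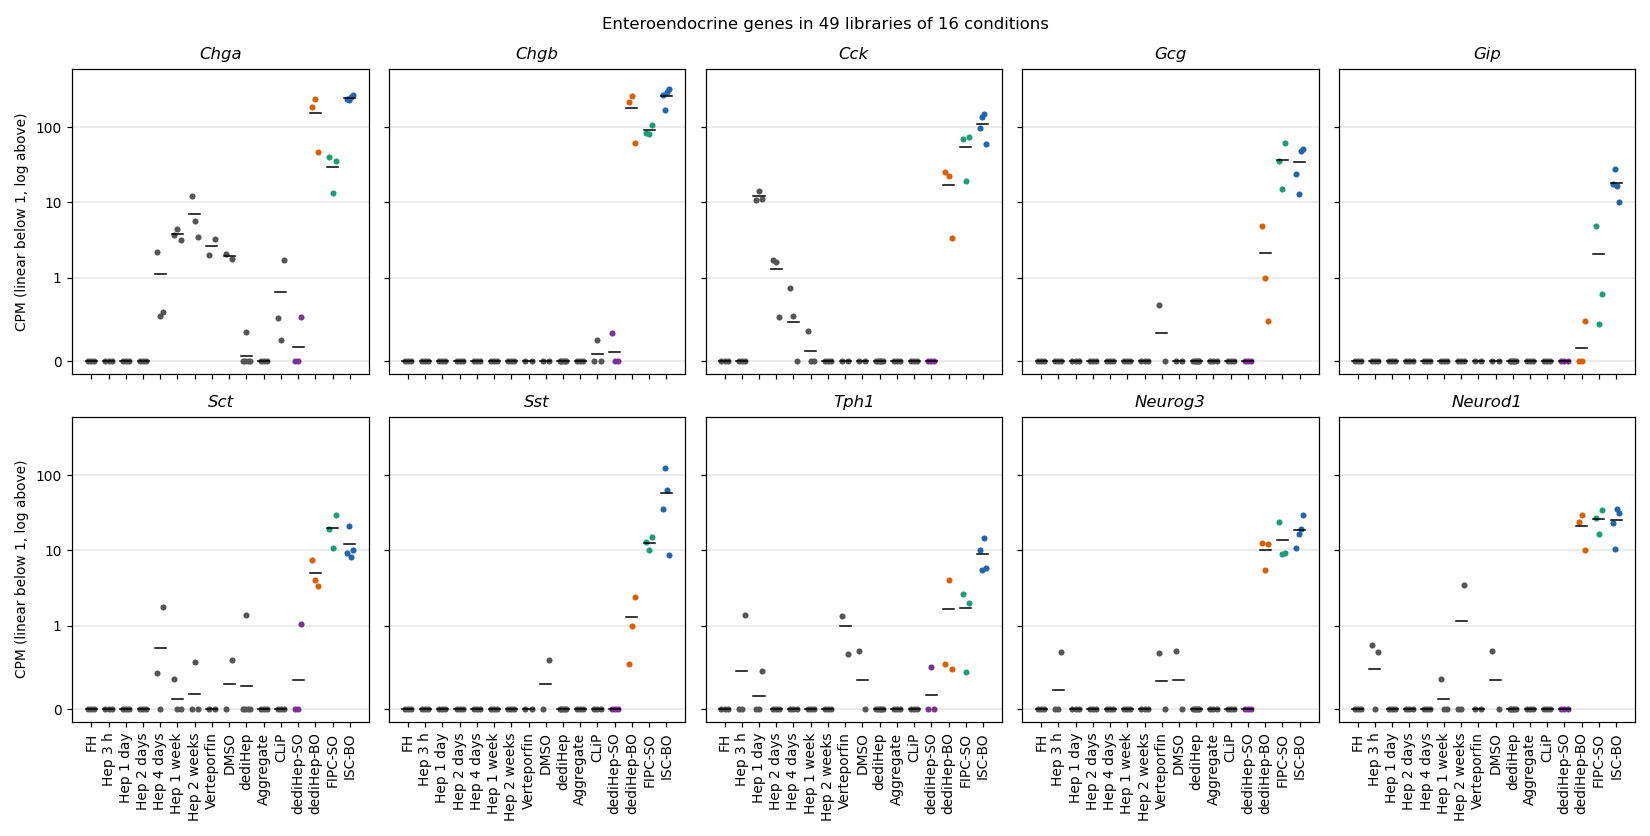
Level of each of the 10 genes in every library, in CPM of the library total on an axis that is linear below 1 and logarithmic above; points are libraries, black bars are group means, and colours mark the 4 organoid groups. All 10 genes sit at 0 in the 3 FH libraries, and in ISC-BO every library of every gene lies above 5 CPM.

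The ISC-BO libraries set the level reached by adult gut epithelium in culture. Chga had 234, 231, 253 and 266 CPM there and Chgb 267, 169, 289 and 320 CPM. These were the most abundant of the 10 genes, and Chga varied little between the 4 libraries (246 ± 16.6 CPM, SD). Cck had 96.2, 136, 150 and 58.9 CPM, and Sst 35.8, 126, 64.3 and 8.62 CPM, where the SD was nearly as large as the mean (58.7 ± 50.2 CPM). Gcg had 23.9, 12.8, 47.7 and 51.7 CPM and Gip 17.6, 27.4, 16.7 and 10.1 CPM. Libraries high in one hormone were not high in all: replicate 2 had the highest Sst, Gip and Sct and the lowest Gcg, Neurod1 and Tph1.

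Sct had 9.10, 21.0, 8.10 and 10.1 CPM in ISC-BO and Tph1 10.2, 5.56, 14.8 and 5.75 CPM. Neurog3 had 10.8, 16.7, 19.1 and 29.2 CPM and Neurod1 22.8, 10.3, 35.7 and 31.6 CPM. The factor of the short-lived progenitor and the factor that follows it were thus both measured in every library, at about the level of the rarer hormones.

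Against fresh hepatocytes all 10 genes were called higher in ISC-BO, where a call needed a log2 fold change beyond 2 in either direction and an FDR below 0.1 in edgeR's quasi-likelihood test, and 14.8% of all genes tested were called higher. Since FH had no count, a gene could pass the count filter only through ISC-BO, and the folds are lower bounds: with 3 counts allowed over the FH libraries, Chgb was at least 343-fold higher, Chga at least 326-fold, Cck at least 149-fold and Tph1, the lowest, at least 11.9-fold. FDRs ran from 1.21e-06 (Chga) to 0.00196 (Tph1). In bulk libraries more cells of a type and more RNA per cell cannot be told apart, here or below.

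The dediHep-BO libraries asked whether hepatocyte-derived cells given Cdx2 reach these levels. Chga had 187, 233 and 46.4 CPM and Chgb 219, 256 and 62.2 CPM, so that both granule genes overlapped ISC-BO and were lowest in replicate 3. Neurod1 had 24.2, 29.1 and 10.0 CPM and Neurog3 12.4, 5.52 and 12.0 CPM, and both factors overlapped ISC-BO. Of the hormones, Cck had 25.3, 22.6 and 3.35 CPM and Sct 7.54, 4.01 and 3.35 CPM, all below the lowest ISC-BO library. Gcg had 4.85, 1.00 and 0.478 CPM and Sst 0.539, 1.00 and 2.39 CPM, which are 9, 2 and 1 counts and 1, 2 and 5 counts. Tph1 had 1, 8 and 1 counts (0.539, 4.01 and 0.478 CPM), and Gip had 1 count in the 3 libraries together.

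Against FH, Chga, Chgb and Neurod1 were called higher in dediHep-BO (FDR = 0.000203, 0.000116 and 0.00095), in a comparison in which 14.2% of genes were called higher. They were the only members that passed the count filter there, through dediHep-BO alone, so that their number is no result. The bounds were at least 234-fold for Chgb, 204-fold for Chga, 27.7-fold for Neurod1, 22.1-fold for Cck, 13.2-fold for Neurog3 and 6.49-fold for Sct. When all 49 libraries were fitted together, which keeps all 10 genes in the test, 8 were called higher (14.6% of genes) and Gip and Sst were not.

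Set directly against ISC-BO, dediHep-BO had 5 of the 10 genes called lower, namely 4 of the 5 peptide hormones and Tph1. Of all genes tested, 1.71% were called lower. The 5 genes passed the count filter through ISC-BO alone, the group where they were higher, so that their number is no result. No member was called higher. The fitted log2 fold change was −6.35 ± 0.766 (SE) for Gip (FDR = 0.000923), −5.46 ± 0.952 for Sst (FDR = 0.00768), −4.04 ± 0.703 for Gcg (FDR = 0.00768), −2.74 ± 0.569 for Cck (FDR = 0.0186) and −2.42 ± 0.677 for Tph1 (FDR = 0.0621). Over pooled libraries the ISC-BO level was 108 times that of dediHep-BO for Gip (95% counting interval 19.1 to 4306, from 1 count in dediHep-BO), 45.7 times for Sst (23.0 to 106), 16.7 times for Gcg (9.43 to 32.8), 6.71 times for Cck (5.45 to 8.34) and 5.31 times for Tph1 (2.73 to 11.5). These intervals are exact binomial ones and cover counting error only. Single libraries moved the ratios further: without dediHep-BO replicate 1 that of Gcg was 46.0, and without replicate 2 those of Tph1 and Gip were 17.6 and 72.0. Without replicate 3 the ratio of Sst was 79.0 and Gip had only a bound of at least 23.4-fold, and without ISC-BO replicate 2 the ratio of Sst was 27.0. The call of Tph1 was lost without dediHep-BO replicate 1 or 3 or ISC-BO replicate 1 or 3, with FDRs of 0.132 to 0.235, and in the fit of all libraries (FDR = 0.139), whereas those of Gip, Sst, Gcg and Cck passed without any single library.

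The other 5 genes were not called in that comparison. Their log2 fold changes were −0.28 for Neurod1 (95% interval −1.26 to 0.70), −0.58 for Chgb (−1.47 to 0.31), −0.70 for Chga (−1.61 to 0.22), −0.97 for Neurog3 (−1.88 to −0.06) and −1.34 for Sct (−2.42 to −0.27). The intervals of Neurod1, Chgb and Chga include 0 and reach below −1, so that equal levels were not shown. The median over the 10 genes was −1.88, beside 0 over all genes tested.

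**Figure D2:**
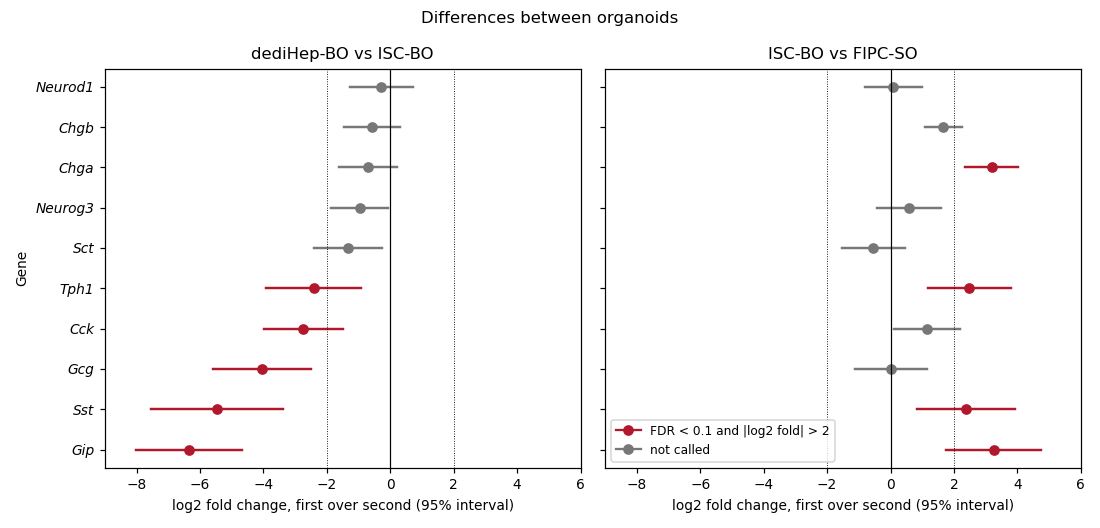
Log2 fold change of each gene with its 95% interval, for dediHep-BO over ISC-BO at left and ISC-BO over FIPC-SO at right; red marks called genes, past the dotted lines and with an FDR below 0.1, grey marks genes not called. At left the peptide hormones Gip, Sst, Gcg and Cck lie furthest below 0, and the factors and chromogranins nearest to it.

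Because 1 UMI stands for 1 captured transcript, the counts of different genes were set side by side within a library. Capture may differ between genes, so these shares serve to compare groups and are not proportions of the transcripts in the cells. Peptide hormones (Cck, Gcg, Gip, Sct and Sst summed) made up 8.61%, 5.52% and 8.47% of the hormone and chromogranin counts of the dediHep-BO libraries (95% Wilson intervals 6.88% to 10.7%, 4.28% to 7.08% and 5.60% to 12.6%). The same share was 26.7%, 44.7%, 34.6% and 19.2% in ISC-BO and 53.4%, 37.2% and 56.0% in FIPC-SO. The share was low in all 3 dediHep-BO libraries, including replicate 3, where both kinds of gene were lower in CPM, and its range met that of neither other group. Per 100 chromogranin counts there were 5.84 to 9.42 hormone counts in dediHep-BO, 23.8 to 80.9 in ISC-BO and 59.2 to 127 in FIPC-SO. The 2 factors stood at 7.07 to 20.3 counts per 100 chromogranin counts in dediHep-BO, 6.70 to 10.4 in ISC-BO and 26.8 to 40.5 in FIPC-SO.

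**Figure D3:**
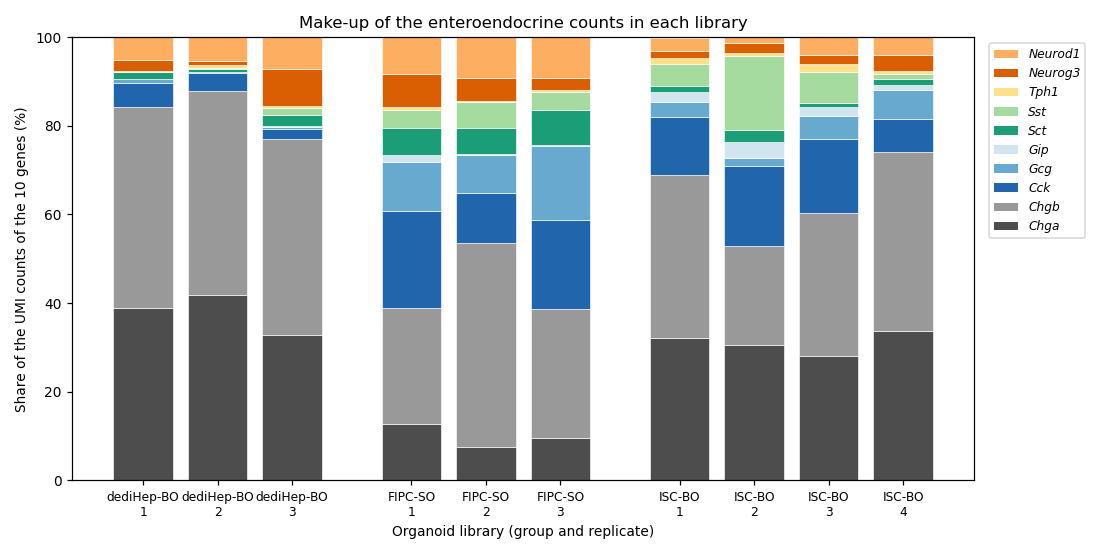
Share of each gene in the UMI counts of the 10 genes, in percent, 1 bar for each dediHep-BO, FIPC-SO and ISC-BO library. The grey segments, Chga and Chgb, fill most of each dediHep-BO bar, and the blue and green hormone segments take more of the FIPC-SO and ISC-BO bars.

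Spherical organoids of fetal gut differ from adult budding ones in origin, age and medium together, which cannot be told apart. Chga had 40.3, 13.3 and 35.1 CPM in FIPC-SO and Chgb 83.2, 81.3 and 107 CPM, so that neither gene overlapped ISC-BO. Gip had 11, 1 and 2 counts (4.87, 0.444 and 0.807 CPM) and Tph1 6, 1 and 5 counts (2.66, 0.444 and 2.02 CPM). Gcg had 35.0, 15.1 and 61.4 CPM and Sct 19.5, 10.7 and 29.5 CPM, the highest group means of both genes in the series. Sst had 12.8, 10.2 and 14.9 CPM, Cck 69.5, 19.5 and 74.7 CPM, Neurog3 23.5, 8.88 and 9.28 CPM and Neurod1 26.6, 16.4 and 34.3 CPM.

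ISC-BO was called higher than FIPC-SO for 4 of the 10 genes, with 4.00% of all genes called higher: Gip (log2 fold change 3.26 ± 0.681, FDR = 0.00858), Chga (3.19 ± 0.380, FDR = 0.000278), Tph1 (2.49 ± 0.593, FDR = 0.0177) and Sst (2.38 ± 0.707, FDR = 0.0511). Gip and Tph1 passed the count filter through ISC-BO alone, so that the number called is no result. The call of Sst was lost without any 1 of the FIPC-SO libraries (FDR = 0.103 to 0.168) and without ISC-BO replicate 2, where the log2 fold change was 1.63. Chgb passed the FDR but not the fold threshold (1.67 ± 0.268, FDR = 0.00166). No difference was called for Gcg (0.00, 95% interval −1.13 to 1.14), Neurod1 (0.09, −0.81 to 0.99), Neurog3 (0.58, −0.42 to 1.58), Sct (−0.54, −1.54 to 0.45) or Cck (1.16, FDR = 0.158). The ratio of Chga to Chgb was also lower in every FIPC-SO library than in the budding organoids, which overlapped each other: there were 16.4 to 48.4 counts of Chga per 100 of Chgb in FIPC-SO, 74.6 to 91.0 in dediHep-BO and 83.2 to 136 in ISC-BO.

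The 2 spherical organoid groups were compared next. In dediHep-SO, 8 of the 10 genes were called lower than in FIPC-SO, and 3.98% of all genes were called lower. These 8 passed the count filter through FIPC-SO alone, so that their number is no result. Cck was at least 125-fold higher in FIPC-SO than in dediHep-SO, Gcg at least 86.0-fold, Neurod1 at least 59.1-fold, Neurog3 at least 31.2-fold and Sst at least 28.9-fold, each against 3 counts allowed over the dediHep-SO libraries. Chgb, with 637 counts in FIPC-SO against 1, had a ratio of 620 (95% counting interval 111 to 24543), Chga of 203 (36.0 to 8040) and Sct of 68.7 (18.7 to 573). Leaving out dediHep-SO replicate 1 gave a ratio of 115 for Chga and 39.1 for Sct and a bound of at least 118-fold for Chgb, and without replicate 3 the bounds were at least 48.7-fold for Chga and 33.0-fold for Sct. Without FIPC-SO replicate 3 the bound for Gcg was 56.8-fold, and without replicate 1 that for Neurog3 was 20.6-fold. Gip and Tph1 did not pass the filter, with 14 and 12 counts in FIPC-SO against 0 and 1. Without the filter Gip was called lower (FDR = 0.0119) and Tph1 was not (FDR = 0.118).

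Within the dediHep lineage the budding organoids differed from the spherical ones by both forced Cdx2 and medium, which cannot be told apart. Chga, Chgb, Neurod1 and Neurog3 were called higher in dediHep-BO, with 5.60% of all genes called higher. They were the 4 members that passed the filter, through dediHep-BO alone, so that their number is no result. In the fit of all libraries 8 of the 10 genes were called (6.57% of genes), Gip and Tph1 excepted. The ratio of pooled levels was 1200 for Chgb (95% counting interval 215 to 47431) and 1043 for Chga (187 to 41230), each from 1 count in dediHep-SO. Without the library that held that count the bounds were at least 228-fold for Chgb and 251-fold for Chga, and without dediHep-SO replicate 1 the ratio of Chga was 594. The bounds were at least 47.4-fold for Neurod1, 37.8-fold for Cck and 22.5-fold for Neurog3.

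Whether the step from spherical to budding organoids differed between dediHeps and gut cells was tested with an interaction term. It sets dediHep-BO over dediHep-SO against ISC-BO over FIPC-SO. Forced Cdx2 and age cannot be told apart from origin in it. The term was called positive for 6 of the 10 genes (5.38% of all genes): both chromogranins (Chga 6.32 ± 1.12, Chgb 8.05 ± 0.898 on the log2 scale), both factors (Neurog3 6.84 ± 1.31, Neurod1 8.39 ± 1.22), Cck (7.03 ± 1.74) and Sct (4.30 ± 1.06). With counts of 0 to 2 in dediHep-SO these values depend on how the fit treats zeros. No member passed the count filter through dediHep-SO, whose low counts raise the term, so that the number called is no result. Gcg (5.16, FDR = 0.108) missed the threshold and was called with DESeq2, without the count filter and without dediHep-BO replicate 3, FIPC-SO replicate 2 or ISC-BO replicate 4, and Sst (2.19, FDR = 0.484), Tph1 (0.51, FDR = 0.773) and Gip (−1.31, FDR = 0.818) were not called.

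Ordered by mean level, ISC-BO stood first for Chga, Chgb, Cck, Gip, Sst, Tph1 and Neurog3 and FIPC-SO for Gcg, Sct and Neurod1. Overlap of libraries is given here as a description, since the share of all genes without overlap was not computed. The first and second groups did not overlap for Gip and Tph1 only. The libraries of dediHep-BO, second in order for Chga and Chgb and below FIPC-SO and ISC-BO for the others, lay apart from the next group below it for Chga, Sct, Neurog3 and Neurod1, and overlapped it for Chgb (FIPC-SO), Cck (hepatocytes at 1 day) and Gcg, Gip, Sst and Tph1, which were near the limit of detection there.

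Hepatocytes in monolayer had 2 of the 10 genes at more than stray counts, and at different times. Cck had 10.9, 14.3 and 11.1 CPM at 1 day after plating (25, 30 and 24 counts), after 0 counts in FH and at 3 h. It fell to 1.70, 1.64 and 0.526 CPM at 2 days, had 3 counts at 4 days and 1 at 1 week, and was not counted at 2 weeks or in dediHeps. The 3 libraries at 1 day were close to each other and apart from those of every other time. Cck was the only member tested in the time course. It passed the count filter through the 3 libraries at 1 day alone, so that its being tested is no result. Cck was called higher than FH at 1 day (log2 fold change 7.51 ± 1.37, FDR = 0.000463), where 6.55% of genes were called higher, and at 2 days (4.26 ± 1.85, FDR = 0.0832), where 9.18% were. The bound was at least 16-fold at 1 day. The call at 2 days, which rests on 4, 4 and 1 counts, was lost in 13 of the 28 other fits, among them those without any 1 of the FH libraries (FDR = 0.147 to 0.169), whereas that at 1 day held in all 28. At 1 day no other member was counted except Tph1, with 1 count.

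Chga followed another course. It was not counted up to 2 days, had 5, 1 and 1 counts at 4 days (2.19, 0.542 and 0.588 CPM), 10, 8 and 8 at 1 week (3.64, 4.45 and 3.22 CPM) and 31, 10 and 3 at 2 weeks (12.1, 5.68 and 3.48 CPM). All 6 libraries of the last 2 times were above all those of FH. The cultures kept for 1 week with DMSO had 2.09 and 1.79 CPM and those with verteporfin 2.03 and 3.31 CPM, so the pairs overlapped. Chga missed the count filter in the time course of 21 libraries, and passed it and was called at both times in 19 of the 21 fits that left out a library, those without replicate 1 or 2 of the 2 weeks excepted. Without the filter it was called higher than FH at 1 week (log2 fold change 5.67 ± 1.79, FDR = 0.0103), as were 6.93% of genes, and at 2 weeks (6.72 ± 1.66, FDR = 0.000416), as were 7.65%. The bounds were at least 4.92-fold and 11.3-fold, and the latter was 6.59-fold without replicate 1 of the 2 weeks, which held 31 of the 44 counts. In dediHeps 1 count was found in 5 libraries, and the pooled level at 2 weeks was 91.3 times as high (95% counting interval 15.6 to 3687), or 53.3 times without that replicate and at least 22.4-fold higher without dediHep replicate 3, which held the 1 count. Chgb, the other chromogranin, had 0 counts in all hepatocyte cultures and dediHeps, and Neurog3 had 0 from 1 day to 2 weeks in the time course.

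**Figure D4:**
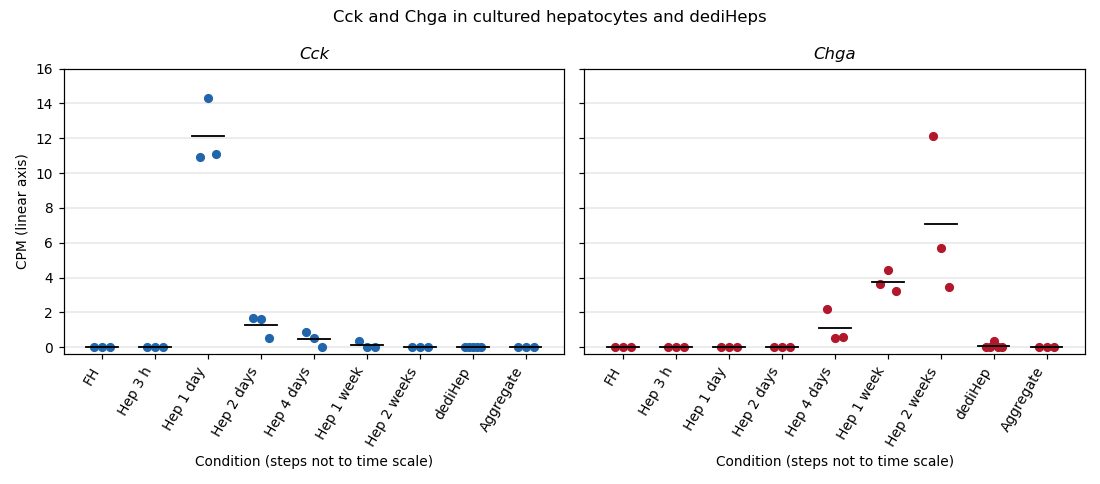
Cck and Chga in CPM on a linear axis in fresh and cultured hepatocytes, dediHeps and aggregates; points are libraries and black bars group means. Cck is high in the 3 libraries at 1 day alone, and Chga is counted in all 9 libraries from 4 days to 2 weeks and in 1 of 5 dediHep libraries.

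No member passed the filter for dediHeps against FH, aggregates against dediHeps, CLiPs against FH or verteporfin against DMSO. In the fit of all libraries edgeR tested all 10 in these 4 comparisons and called none, with 0 at an unadjusted p under 0.05, but with so few counts a difference was not detectable at this depth. The most that any of these libraries held was 7 counts of the 10 genes together.

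Genes that act in the same cells were taken from lists. Of 12 other factors of the lineage, all were matched and 1 or 2 passed the count filter in the organoid comparisons. Atoh1, which drives secretory fate upstream of Neurog3, was called higher in dediHep-BO than in dediHep-SO (log2 fold change 5.57, FDR = 6.61e-05). Against ISC-BO it was also higher and passed the FDR but not the fold threshold (0.99, FDR = 0.0955). The 12 factors summed to 54.4 to 74.6 CPM in dediHep-BO, 37.8 to 57.8 in ISC-BO, 40.0 to 66.4 in FIPC-SO and 1.02 to 3.04 in dediHep-SO, where 6 of the 12 were at 0. Atoh1 alone had 30.7, 45.7 and 62.7 CPM in dediHep-BO, and was highest in replicate 3, the library of that group with the lowest Neurod1.

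Of 8 other gut hormones, 3 could be tested between dediHep-BO and ISC-BO and 2 were called lower: Ghrl, which encodes ghrelin (−3.79, FDR = 0.0193), and Nts, neurotensin (−2.71, FDR = 0.0441). Of all genes tested, 1.71% were called lower. Ghrl and Nts passed the count filter through ISC-BO alone, so that their number is no result. Tac1, the precursor of substance P, a product of serotonin-making enterochromaffin cells, was not called (−1.52, FDR = 0.103), and had 71, 64 and 12 counts in dediHep-BO against 128 to 167 in ISC-BO. All 8 were at 0 in dediHep-SO. Pyy, peptide YY of the L cell, which also makes GLP-1, had 34, 0 and 47 counts in FIPC-SO and 0 to 2 in each of the other organoid libraries. Of 14 genes of granules and prohormone processing, 7 were tested in the same comparison and 1 was called lower, the calcium sensor Scgn (−4.04, FDR = 0.00132), with 1, 1 and 3 counts in dediHep-BO against 20 to 42 in ISC-BO. Scgn too passed the count filter through ISC-BO alone. Pcsk1, the convertase that cuts prohormones, differed little between dediHep-BO and ISC-BO (−0.12, FDR = 0.87), and was called higher in dediHep-BO than in dediHep-SO (8.73, FDR = 0.000616). Cpe and Pam, which trim and amidate prohormones, went the other way in that comparison (−4.29, FDR = 0.000694, and −2.86, FDR = 0.000239), and dediHep-SO held 229 to 1711 counts of Cpe. Cpe and Pam are not limited to enteroendocrine cells.

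Of 5 genes of serotonin handling none of 4 tested was called between dediHep-BO and ISC-BO. Slc6a4, the serotonin transporter, which absorptive enterocytes carry, was higher in dediHep-BO than in dediHep-SO (9.21, FDR = 0.00186). Of 6 nutrient receptors 2 were tested and Ffar4, a receptor for long-chain fatty acids, was called higher in dediHep-BO than in ISC-BO (3.56, FDR = 0.000481), with 69, 46 and 54 counts against 3 to 7. It passed the count filter through dediHep-BO alone, and 1.34% of all genes tested were called higher. Ffar4 was not called between dediHep-BO and dediHep-SO (0.17, FDR = 0.709), a group without the hormones.

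Markers of other cells that could be in the organoids were summed as well. All 4 mast cell markers, which bear on Tph1, were at 0 in all 13 organoid libraries, and so were the islet genes Ins2 and Ppy. The 5 islet markers summed to 0 to 1.91 CPM in dediHep-BO, 1.78 to 10.5 in FIPC-SO and 1.44 to 18.6 in ISC-BO, where Pdx1, which the upper intestine also expresses, had 24, 24, 25 and 1 counts. The 5 markers of enteric neurons and glia summed to 20.5, 17.1 and 3.35 CPM in dediHep-BO, 0.443, 0.444 and 10.9 CPM in FIPC-SO and 0.479 to 3.00 CPM in ISC-BO. The 4 mesenchymal markers had the same libraries lowest in dediHep-BO and highest in FIPC-SO: they were at 0 in ISC-BO, summed to 156, 224 and 0.478 CPM in dediHep-BO and to 5.31, 5.77 and 377 CPM in FIPC-SO. Chga, Chgb, Neurod1 and Cck were lowest in dediHep-BO replicate 3, the library with the lowest sums of both lists, and Chgb, Cck, Gcg, Sct, Sst and Neurod1 were highest in FIPC-SO replicate 3, the library with the highest sums. The part of these cells in the results was not tested. Without dediHep-BO replicate 3, 4 members were called lower than in ISC-BO, and without FIPC-SO replicate 3, ISC-BO had 3 members called higher than FIPC-SO.

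The epithelial markers showed where the organoid groups differed outside the endocrine lineage. Enterocyte markers (6 genes) summed to 2345 to 3593 CPM in dediHep-BO, 2612 to 4234 in ISC-BO, 363 to 572 in FIPC-SO and 278 to 373 in dediHep-SO. The last 2 sums differ in make-up. In dediHep-SO replicates 1 and 2, 5 of the 6 markers, all but Vil1, were at 0, whereas 0 of the 6 were in each FIPC-SO library. Goblet markers (5 genes) summed to 1125 to 1449 CPM in dediHep-BO, 437 to 1095 in ISC-BO, 209 to 658 in FIPC-SO and 51.1 to 176 in dediHep-SO. The low hormone levels of dediHep-BO therefore stood beside enterocyte levels that overlapped ISC-BO and goblet levels above it, and dediHep-SO, in which the members were nearly absent, had stem cell markers (639 to 712 CPM) within the ISC-BO range of 498 to 845 CPM.

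The genes most like each member over the 13 organoid libraries were found by the Pearson correlation of log2(CPM + 1) among 13335 genes with at least 50 counts there, as a description over libraries that fall into 4 groups. For Chgb they were Defa3 (r = 0.990), Itln1 (0.989) and Cdx1 (0.988), for Chga Mep1b (0.981) and Cyp2d26 (0.981), and for Neurod1 Cdx1 (0.981), Gcnt3 (0.974) and Trim31 (0.971). Those nearest to Cck were Defa24 (0.975), Defa30 (0.973) and Clps (0.964). Defensins of Paneth cells and genes of enterocytes were thus among those nearest to the abundant members. For Sst they were Gstt2 (0.974), Bcl11a (0.961) and the hormone Ghrl (0.960), and Gip was nearest to Alox12b (0.968), Grk3 (0.959) and Rec8 (0.957). Gcg was nearest to Fam111a (0.953), Bckdhb (0.953) and Cdcp1 (0.951), Neurog3 to Ror2 (0.955), Dach1 (0.954) and Trim31 (0.953), Sct to Serpini1 (0.946), Minos1 (0.939) and 1700019D03Rik (0.937), and Tph1 to Plbd1 (0.921), Cerk (0.915) and Defa25 (0.907). Counts of single defensin genes are uncertain, since near-identical copies share sequence. Among the members themselves Chgb and Chga (r = 0.97) and Neurod1 and Chgb (0.97) were most alike, and Neurod1 and Gip (0.47) least.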

How the data were processed

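Transcripts were measured by CEL-seq2 in 49 libraries of 16 groups, taken from the sample labels. The authors deposited 1 table of UMI counts per Ensembl gene, not normalized. The submitters' processing notes name bcl2fastq 2.20, Bowtie2 2.3.1, HTSeq 0.6.0 and GRCm38. UMIs of 6 bases allow 4096 counts per gene and library, and the members reached at most 667. All count columns were mapped to samples by label. Levels are CPM of the library total. Tests were edgeR 4.0.16 quasi-likelihood fits (R 4.3.3) of the libraries compared, with TMM, filterByExpr (minimum count 10, minimum total 15) and Benjamini-Hochberg adjustment over all genes tested. Calls needed an FDR below 0.1 and a log2 fold change beyond 2 in either direction, as in the study. SEs and 95% intervals follow from the F statistic.

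The fit was tested on simulated counts first. Folds against groups without counts used a floor of 3 counts over the group. All 10 members were named in each comparison. Of the other lists, called genes were named, up to 5 a list and comparison, with a few uncalled ones for contrast chosen after their values were seen, and the 3 genes most correlated with each member, of which 1 is not reported here. The members and lists were chosen with earlier results of these data known. Alternatives were RLE normalization, no count filter, DESeq2 1.42.0, all 49 libraries in 1 fit, an FDR under 0.05 without a fold threshold, a replicate block, a correction for UMI collisions, and leaving out each library, for ratios of pooled levels as an alternative chosen after seeing the data. Replicate numbers of the titles did not pair libraries over whole comparisons. Aggregates and dediHeps share culture codes (3 pairs, correlations of deviations 0.182 to 0.358) and were also fitted with these as a block. Promoters are from RefSeq.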

Additional observations from a re-analysis of the deposited data

Results flagged for a closer look

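In 3 groups a single library stood far from the others, its gap to the nearest taking up nearly the whole range of the group. These were Sct in ISC-BO replicate 2 (21.0 CPM, against 8.10 to 10.1 in the other 3), Chga in dediHep replicate 3 (0.351 CPM, 1 count) and Sct in the same library (1.40 CPM, 4 counts), where the other 4 dediHep libraries had 0. Such a gap was looked for in 12 groups of values. A rate by chance of about 1 of 20, or 0.6 here, holds for normally distributed values, not for counts near 0. Where 1 library alone had counts, as in dediHeps, the gap was the whole range by construction, so that those flags are no result. The values of dediHep replicate 3 are within 4 counts of 0. ISC-BO replicate 2 was also the highest of its group in Sst and Gip.

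The change from spherical to budding organoids was called different between dediHeps and gut cells by the interaction term for 6 of the 10 genes. On the log2 scale it was 8.39 for Neurod1, 8.05 for Chgb, 7.03 for Cck, 6.84 for Neurog3, 6.32 for Chga and 4.30 for Sct, all higher for dediHeps. All 6 rest on dediHep-SO libraries with 0 to 2 counts, through which no member passed the count filter, so that their number is no result. Origin, forced Cdx2 and age cannot be told apart in this term.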

How the results depend on the processing

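Of 979 values of single genes under the alternatives, 948 stayed called or not called as before, 24 lost the call and 7 gained it. No called value reversed its direction, and the direction of uncalled values was not compared. RLE normalization changed no call, and the correction for UMI collisions added Neurog3 for dediHep-BO against FH (4 members), where it then passed the filter. The count of members called moved where the count filter acts on genes absent from 1 group. For dediHep-BO against FH it was 3, and 7 without the filter or 8 with all libraries in 1 fit. For dediHep-BO against dediHep-SO it was 4, and 9 or 8. For dediHep-SO against FIPC-SO it was 8, and 9 under either setting, and for the time course 1, and 2 under either. Leaving out single libraries gave 3 to 5 members for dediHep-BO against FH, where Cck and Neurog3 passed the filter without any 1 of the FH libraries, and 1 to 2 for the time course. The ranges were 9 to 10 for ISC-BO against FH, 4 to 5 for dediHep-BO against ISC-BO and against dediHep-SO, 3 to 4 for ISC-BO against FIPC-SO, 8 for dediHep-SO against FIPC-SO and 6 to 7 for the interaction.

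Replicate numbers did not pair the libraries over whole comparisons. In the time course the correlations of deviations ran from −0.582 to 0.627, although all 3 were above 0.1 for 4 days with 1 week (0.272 to 0.627) and for 1 day with 4 days (0.112 to 0.323), and verteporfin with DMSO had 0.438 over 2 pairs. The fit with the replicate number as a block left out ISC-BO replicate 4, which has no partner. It called 9 of the 9 members tested for ISC-BO against FH, 5 for dediHep-BO against ISC-BO and 7 for the interaction, Gcg being added, and the counts were 9, 5 and 7 too without that library and without the block. The call of Cck at 2 days was lost (FDR = 0.103). With culture codes as a block none was called between aggregates and dediHeps. In dediHep-BO, depth limits Gip, Sst, Gcg and Tph1, which had 1 to 12 counts over 3 libraries.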

Other observations

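Neurotensin (Nts), a hormone of the distal gut and not among the 10 genes, was counted in hepatocyte cultures that lacked most of the members. It had 0 counts in FH and 37 over the 3 libraries at 1 week, and 118 at 2 weeks, where its level was 21.0 ± 6.56 CPM (SD, n = 3). The increase over FH was called at 4 days (log2 fold change 4.26, FDR = 0.0600), at 1 week (6.08, FDR = 0.00200) and at 2 weeks (8.26, FDR = 1.59e-05, edgeR). The 5 dediHep libraries held 106 counts, from 3.16 to 36.2 CPM, and Nts was called lower in aggregates than in dediHeps (−4.66, FDR = 0.0284). In dediHep-SO it was at 0. Cpe, the carboxypeptidase of prohormone processing, was likewise at 0 in FH and had 677 ± 112 CPM at 1 day and 811 ± 321 CPM in dediHeps (n = 5), while Pcsk1n, a partner of the convertase Pcsk1, had 0 to 4 counts over each of FH, 1 day, 1 week, 2 weeks and dediHeps. Ddc, which makes serotonin from the product of Tph1, went from 476 ± 341 CPM in FH to 6.40 ± 1.14 CPM at 1 day. Ddc also serves dopamine synthesis and is known from liver.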
